A study of Mus musculus with 8 samples.

Results

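The comparison described here sets mouse embryonic fibroblasts kept for 7 days in 5 µM I-CBP112 against the same kind of cells kept in 1% DMSO, gene by gene. All genes with a mean normalised count above 0 were members, 34250 of the 50600 genes in the authors' tables. For each member the log2 fold change in the DMSO table was taken from that in the I-CBP112 table, so the shared reference cancels. A positive difference means more RNA with I-CBP112. Of the members, 14830 were tested, those whose mean normalised count reached 26.1, and the other 19420 were not.

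Every group was C57BL/6 embryonic fibroblasts transduced with retroviruses for the GHMT factors (Gata4, Hand2, Mef2c and Tbx5) and grown in StemPro-34 medium, with the agent renewed every few days. The groups used are 1% DMSO and 5 µM I-CBP112, with 0.1% ethanol as the level both are read against. The tables do not name their shared reference, and it was read as ethanol because ethanol is the group without a table of its own. The differences between I-CBP112 and DMSO do not depend on that reading, and the levels given for ethanol do. A group with 5 µM C646 belongs to the same fit and is not described. Each group had 2 libraries. Their titles number them B2 and B3 in every group, and the test does not pair them by this number. The labels do not say whether these came from separate cultures, so the spread between libraries may be technical. The p-values measure that spread with 1 dispersion per gene over all 4 groups of the fit, C646 included. No group without the retroviruses was used, the labels used here do not name the solvent of I-CBP112, and the treatments differ in dose as well as in agent. The tables used here hold no values of single libraries, so each level below is a group mean rebuilt from the tables, and whether single libraries of the groups overlap cannot be seen. Levels are read within a gene and not between genes.

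I-CBP112 is a small molecule that occupies the bromodomain of CBP and of p300, the pocket with which these acetyltransferases read acetylated lysines. CBP and p300 acetylate histones at enhancers and promoters and serve as coactivators for many transcription factors, among them Gata4, Mef2c and the factors of the interferon response. DMSO, a common solvent for small molecules, is known to sit weakly in the same kind of pocket. The GHMT factors turn fibroblasts towards heart muscle cells, which build sarcomeres and handle calcium for contraction. The comparison answers how far expression under the solvent at a high dose and under the bromodomain ligand differ in such cells.

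The fibroblast label was checked against its markers: Col1a1, Col1a2, Col3a1, Pdgfra, Pdgfrb, Thy1, Vim and Ddr2 were all present. Their summed levels were 564905 normalised counts with DMSO, 516024 with I-CBP112 and 852830 with ethanol. Past the test, 1 of them was higher with I-CBP112, Vim, and 1 lower, Col1a2. The 7 cardiomyocyte markers summed to 300061 with DMSO and 287542 with I-CBP112, beside 108804 with ethanol. Totals of normalised counts per group differed by -0.04 on the log2 scale, and mitochondrial ribosomal RNA took 12.7% of them with DMSO and 11.9% with I-CBP112. In bulk samples, fewer cells of a type and less RNA per cell cannot be told apart.

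Of the genes past the test, more were higher than lower with I-CBP112. Among all tested genes, past the test or not, 45.4% had a difference above 0. At an adjusted p below 0.05 (Wald test on the difference, Benjamini-Hochberg over 14830 genes), 1034 genes passed the test, 6.97% of those tested. Of these 639 were higher with I-CBP112 (4.31%) and 395 lower (2.66%). The counts of each gene list below are to be read beside these shares, as lists with few calls can lie near them. A difference of at least 2-fold was found for 277 of the genes past the test (1.87%), 198 higher (1.34%) and 79 lower (0.533%). Differences are on the log2 scale and are given with their standard errors. For called genes of a mean level below 50 normalised counts, differences ran from -2.80 ± 0.78 in Myo15b to 5.52 ± 0.98 in Gm2260, genes chosen after their values were seen. The median over all tested genes was -0.03, with quartiles of -0.20 and 0.16. Genes higher with I-CBP112 had a median difference of 0.77, or 1.70-fold, and genes lower had -0.66, or 1.58-fold lower. In the authors' deposited tables the genes called higher had a median log2 fold change against ethanol of -0.62 with DMSO and 0.15 with I-CBP112. For the genes called lower these medians in the authors' deposited tables were 0.41 and -0.24. Both tables share the ethanol libraries, and the choice of the genes fixes the order of these medians.

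**Figure D1:**
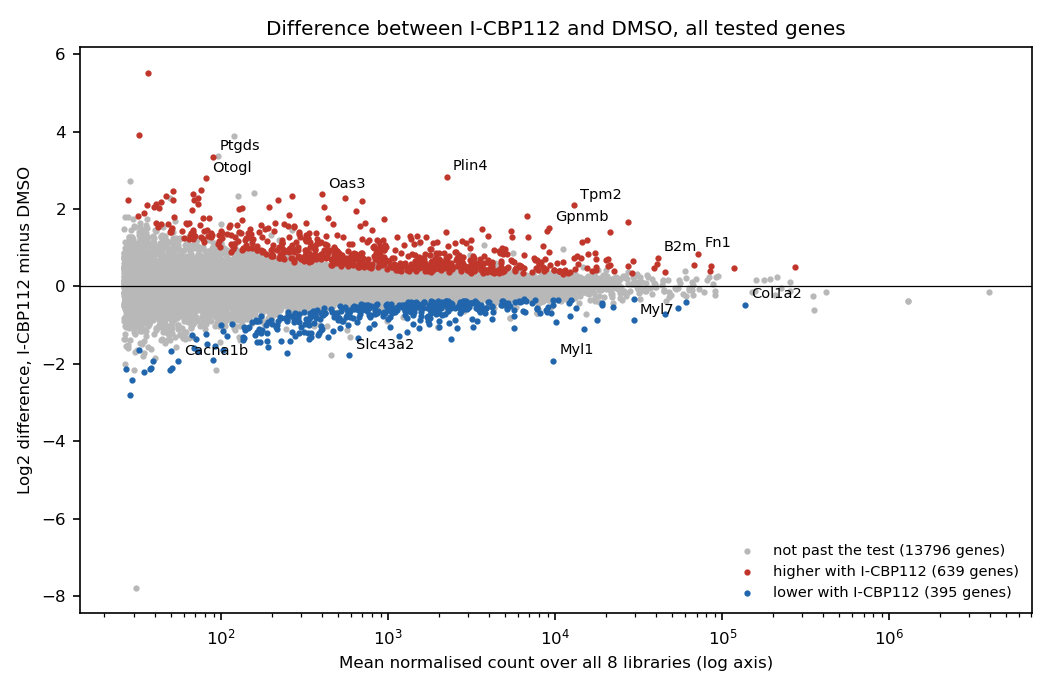
Log2 difference (I-CBP112 minus DMSO) of the 14830 tested genes against their mean normalised count over all 8 libraries on a log axis; each point is a gene, red for the 639 past the test and higher with I-CBP112, blue for the 395 lower, grey for the rest. Of the labelled genes of high level, Myl7 and B2m differed by less than 2-fold, whereas Tpm2 differed by 4.27-fold. The labelled genes Ptgds and Plin4 lie among the highest differences.

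The calls rest on few libraries. A larger error bound, which combines both deposited standard errors in full and so keeps in the spread of the shared reference, left 237 genes past the test. When p came from a t distribution (4 degrees of freedom) 0 genes passed (smallest adjusted p 0.544; 1194 genes had an unadjusted p below 0.05, and 2571 in the main test).

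Most genes were held to a small difference. The 95% interval of the difference lay within 2-fold either way for 11202 genes, 75.5% of those tested. Of the 13796 genes not past the test, 10748 were bounded in this way and 3048 had an interval that reached past 2-fold, so for these the tables do not resolve a difference of that size. Among the 19420 members below the level tested, the median mean normalised count was 1.79.

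The 12 genes with the highest differences past the test coded for secreted proteins, a lipid droplet coat, interferon-induced proteins and smooth muscle proteins, among others. Ptgds (chromosome 2, 25466709 to 25470046, minus strand), the lipocalin-type prostaglandin D synthase, averaged 19.5 normalised counts with DMSO, 199 with I-CBP112 and 71.8 with ethanol, a difference of 3.35 ± 0.51 (adjusted p = 7.14e-09), 10.2-fold. The level with ethanol lay between those of the treatments. Plin4 (chromosome 17, 56100591 to 56109803, minus strand), a coat protein of lipid droplets, averaged 492 with DMSO, 3514 with I-CBP112 and 2488 with ethanol, a difference of 2.84 ± 0.38 (adjusted p = 4.9e-11). Here DMSO stood apart from the other groups. Otogl (chromosome 10, 107760531 to 107912134, minus strand), an otogelin-like glycoprotein, averaged 33.4 with DMSO, 232 with I-CBP112 and 29.3 with ethanol, a difference of 2.80 ± 0.46 (adjusted p = 1.54e-07). In this gene I-CBP112 was the group that stood apart.

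Further genes of this end had low levels with DMSO. Serpinb9b, an intracellular serine protease inhibitor, averaged 81.1 with DMSO, 392 with I-CBP112 and 790.3 with ethanol (2.27 ± 0.22, adjusted p = 2.07e-22). Mdk, the heparin-binding growth factor midkine, averaged 74.6, 349 and 222 in the same order (2.23 ± 0.27, adjusted p = 6.26e-14). Plac8 averaged 14.8, 77.5 and 84.6 (2.39 ± 0.48, adjusted p = 4.31e-05). Aspg, which codes for an asparaginase, averaged 9.59, 53.1 and 69.6 (2.47 ± 0.57, adjusted p = 0.000592), and a larger error bound ends its call. Psd4, an exchange factor for the GTPase Arf6, averaged 20.5, 99.7 and 49.6 (2.28 ± 0.50, adjusted p = 0.000252), and its call likewise ends. The remaining genes among the 12 highest, Tgtp2, Oas3, Actg2 and Tpm2, are described with their groups below. Plin4, Tgtp2 and Serpinb9b overlap an annotated gene on the opposite strand and Aspg overlaps microRNA genes, and the use of strand in counting is not stated, so their reads may be shared.

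The 12 genes with the lowest differences, taken by the same rule, included a myosin light chain, an amino acid transporter and a matrix protease. Myl1 (chromosome 1, 66924295 to 66945404, minus strand), the essential myosin light chain of fast skeletal muscle that is also made in embryonic heart, averaged 28824 normalised counts with DMSO, 7649 with I-CBP112 and 1015 with ethanol. The difference was -1.91 ± 0.13 (adjusted p = 5.71e-47), 3.77-fold lower with I-CBP112. In the authors' deposited tables the log2 fold change against ethanol was 4.83 ± 0.13 with DMSO and 2.91 ± 0.13 with I-CBP112, so both treatments stood above ethanol. Slc43a2 (chromosome 11, 75531694 to 75577575, plus strand), a transporter of large neutral amino acids, averaged 1027 with DMSO, 299 with I-CBP112 and 468 with ethanol (-1.78 ± 0.25, adjusted p = 3.33e-10). Adamts18, a secreted metalloproteinase, averaged 405, 124 and 229.7 (-1.71 ± 0.24, adjusted p = 1.82e-10). In both genes the ethanol level lay between those of the treatments.

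Among the others of the 12 lowest, Smyd1, a muscle-specific lysine methyltransferase needed for sarcomere assembly, averaged 335 with DMSO, 113 with I-CBP112 and 150.4 with ethanol (-1.57 ± 0.29, adjusted p = 1.04e-05). Cacna1b, the pore of the N-type calcium channel, averaged 121, 31.7 and 33.3 (-1.93 ± 0.43, adjusted p = 0.00032). Colgalt2, which adds galactose to collagen, differed by -1.65 ± 0.32 (adjusted p = 2.02e-05). Tinag, a basement membrane protein, differed by -2.12 ± 0.57 (adjusted p = 0.00522), Scml2, a Polycomb group protein, by -1.66 ± 0.38 (adjusted p = 0.000475), and Pnma2, a neuronal antigen, by -1.55 ± 0.42 (adjusted p = 0.00591). The forkhead factor Foxs1 differed by -1.58 ± 0.49 (adjusted p = 0.025) and the cartilage protein Cnmd by -1.49 ± 0.40 (adjusted p = 0.00601). A larger error bound ends the calls of Cacna1b, Tinag, Scml2, Pnma2, Foxs1 and Cnmd. Tinag, Cacna1b, Slc43a2, Colgalt2 and Smyd1 overlap genes on the opposite strand.

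**Figure D2:**
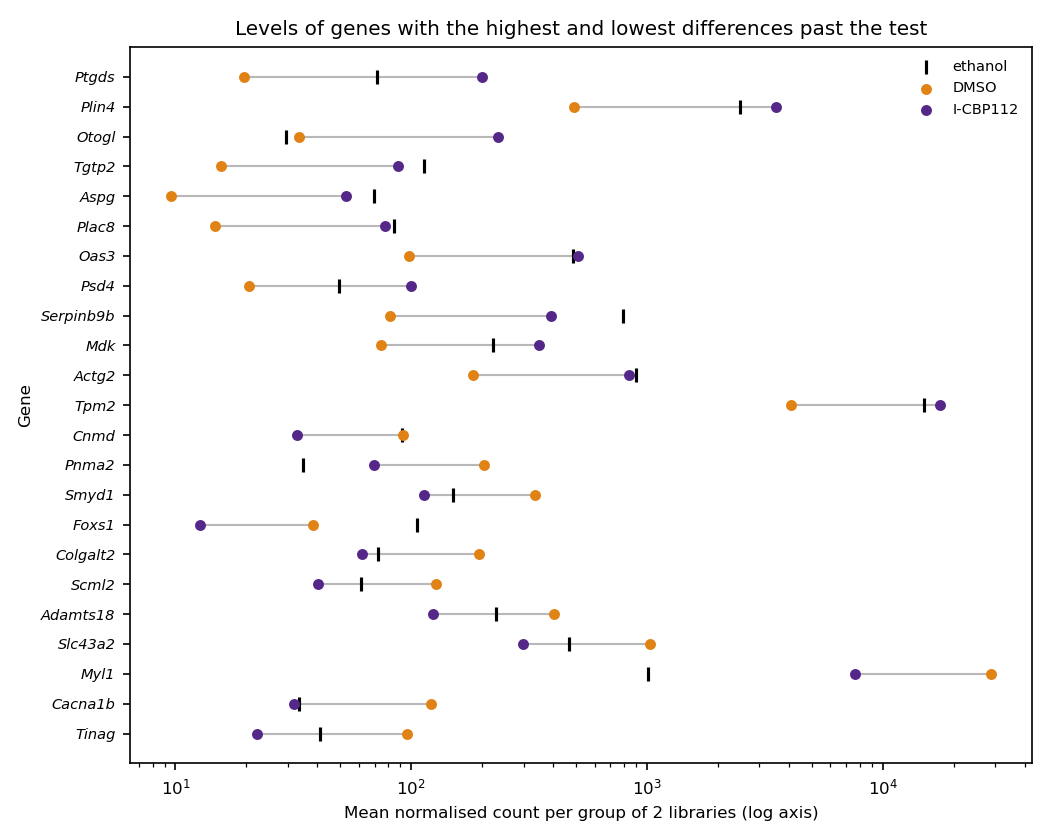
Group means in normalised counts on a log axis for named genes at both ends of the difference among those past the test; a tick marks ethanol, an orange dot DMSO and a purple dot I-CBP112, each a mean of 2 libraries, and positions are to be read within a gene. For Oas3 and Actg2 the I-CBP112 dot lies close to the ethanol tick, whereas for Myl1 both treatments lie above ethanol.

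Interferon response genes were higher with I-CBP112 than with DMSO, and none was lower. Of 43 tested members of the interferon response list, 28 passed the test upward (65.1%, against 4.31% of all tested genes) and all 43 had a difference above 0. The list's median difference was 0.60, beside -0.03 over all tested genes. In the authors' deposited tables the list's median log2 fold change against ethanol was -0.60 with DMSO and 0.08 with I-CBP112. Type I interferon signals through a complex that holds Stat2 and Irf9, which binds a promoter element called ISRE and switches on antiviral genes.

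Among the antiviral effectors, Oas3 (chromosome 5, 120753098 to 120777661, minus strand), a sensor of double-stranded RNA that makes the messenger 2-5A, averaged 98.4 normalised counts with DMSO, 512 with I-CBP112 and 484 with ethanol. Its difference was 2.38 ± 0.26 (adjusted p = 1.38e-17), 5.21-fold. Its relative Oas2 averaged 118, 369 and 386 in the same order (1.65 ± 0.23, adjusted p = 4.73e-10). Oas1a averaged 387, 856 and 845 (1.15 ± 0.17, adjusted p = 2.41e-09), and near-identical Oas1 copies make its reads less certain. In each of the 3 Oas genes DMSO was low while I-CBP112 lay close to ethanol. Ifit3, a partner of the RNA sensor Ifit1, averaged 3068 with DMSO, 7439.6 with I-CBP112 and 5464 with ethanol (1.28 ± 0.18, adjusted p = 5.93e-10); its near copy Ifit3b differed by 1.03, and reads can be split between them. Bst2, or tetherin, which holds enveloped viruses at the cell surface, averaged 3284, 6381 and 5419 (0.96 ± 0.12, adjusted p = 9.56e-13).

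Among the regulators, Irf7, the transcription factor that amplifies interferon production, averaged 1765 with DMSO, 4073 with I-CBP112 and 3381 with ethanol (1.21 ± 0.14, adjusted p = 4.84e-16). Stat2, named outside the rule after its values were seen because it carries the signal, differed by 0.36 ± 0.12 (adjusted p = 0.0451). The 28 calls became 12 with the larger error bound, which ends that of Stat2. The range over tested members ran from 0.07 to 2.38.

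The interferon-inducible GTPases, which attack vacuoles that hold parasites or bacteria, had 9 of 14 tested members higher (64.3%) and none lower, with a median difference of 0.55. Tgtp2 (chromosome 11, 49057194 to 49064206, minus strand) averaged 15.7 normalised counts with DMSO, 88.0 with I-CBP112 and 114 with ethanol (2.49 ± 0.53, adjusted p = 0.000169), and its close copy Tgtp1 differed by 2.11 ± 0.60 (adjusted p = 0.0105), so the split of reads between them is uncertain. Gvin1, a very large interferon-inducible GTPase, averaged 1271, 3579 and 4791 (1.49 ± 0.13, adjusted p = 3.07e-26), with I-CBP112 between DMSO and ethanol. Irgm1, a regulator of the immunity-related GTPases, averaged 1732, 3033 and 2883 (0.81 ± 0.15, adjusted p = 6.99e-06). Irgm2 differed by 0.50 ± 0.13 (adjusted p = 0.00318) and Iigp1 by 0.59 ± 0.15 (adjusted p = 0.00178). Of the GTPase calls, 3 stood with the larger error bound.

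Genes of MHC class I presentation, which display peptides to cytotoxic T cells, had 8 of 17 tested members higher (47.1%) and none lower, with a median of 0.41. B2m (chromosome 2, 122147686 to 122153083, plus strand), the light chain of class I molecules, averaged 29753 normalised counts with DMSO, 49902 with I-CBP112 and 42613 with ethanol (0.75 ± 0.11, adjusted p = 4.16e-09). The heavy chains H2-K1 and H2-D1 differed by 0.73 ± 0.12 (adjusted p = 8.17e-08) and 0.70 ± 0.11 (adjusted p = 1.02e-07). Nlrc5, the transactivator of class I genes, averaged 141, 369 and 395 (1.39 ± 0.29, adjusted p = 0.000116). H2-Q6 and H2-Q4 differed by 2.01 ± 0.31 and 1.20 ± 0.18 (adjusted p = 1.58e-08 and 7.62e-09), though the similar H2-Q genes share reads. The peptide transporter Tap1 was not past the test (0.13 ± 0.15, 95% interval -0.16 to 0.41).

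**Figure D3:**
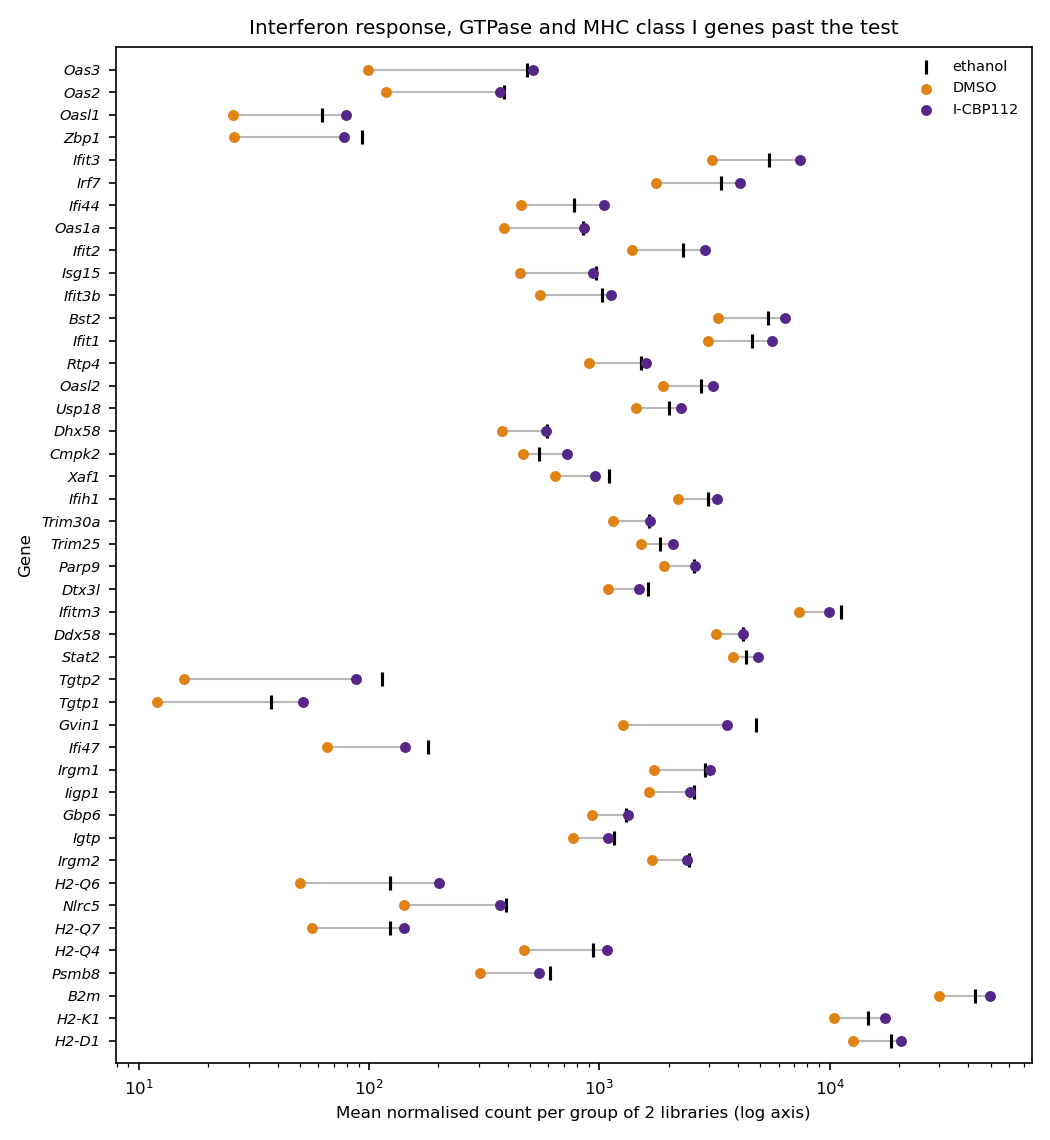
Group means in normalised counts on a log axis for interferon response, GTPase and MHC class I genes past the test, sorted within each list by their difference; a tick marks ethanol, an orange dot DMSO and a purple dot I-CBP112, each a mean of 2 libraries, read within a gene. The DMSO dot lies left of the I-CBP112 dot in every row, and for Oas2, Isg15 and Irgm2 the I-CBP112 dot lies close to the ethanol tick.

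The ISRE is shown here because it is the known element of interferon-induced promoters. Promoter windows of RefSeq (GRCm38.p6) were searched on both strands for the core of the ISRE, GAAA followed by any 2 bases and GAAA again. The windows are 300 bases long and lie mostly before each annotated start. A gene can have several windows, and some genes have none and were not searched. Windows were at hand for 10429 of 14815 tested gene symbols. Past the test, 21 of 28 interferon response genes, 6 of 9 GTPases and 7 of 8 MHC class I genes had one. Of 32851 windows, 3.44% held the motif, and of the windows of tested genes 3.17% did. The share was 7.58% of the 620 windows of genes higher with I-CBP112 and 2.01% of the 349 windows of genes lower. It was 13 of 23 windows of interferon response genes past the test and 5 of 6 of the GTPases past the test, but 1 of 8 of the MHC class I genes past the test, that of B2m. Among all tested members, past the test or not, it was 16 of 37, 9 of 11 and 4 of 16 windows of these lists. Those shares were 43.2%, 81.8% and 25%, beside 56.5%, 83.3% and 12.5% past the test, so matches were not confined to genes past the test. The match of Oas3 ended 65 bases before the annotated start, that of Isg15 nearest to the start 56 and that of Oas1a 4. Each stretch of 60 bases below lies before the annotated start and is written 5′ to 3′ on the gene's strand, with ISRE matches, which may overlap, in capitals.
Oas3 (chr5:120777700-120777759, minus strand): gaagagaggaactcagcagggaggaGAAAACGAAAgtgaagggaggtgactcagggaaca
Oas1a (chr5:120907526-120907585, minus strand): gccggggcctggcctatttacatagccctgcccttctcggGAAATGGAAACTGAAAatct
Ifit1 (chr19:34640779-34640838, plus strand): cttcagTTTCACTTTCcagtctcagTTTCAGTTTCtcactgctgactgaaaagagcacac
Isg15 (chr4:156200850-156200909, minus strand): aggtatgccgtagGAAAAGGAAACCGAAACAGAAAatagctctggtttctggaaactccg
Bst2 (chr8:71537562-71537621, minus strand): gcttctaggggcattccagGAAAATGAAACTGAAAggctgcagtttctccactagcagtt
Irgm1 (chr11:48871421-48871480, minus strand): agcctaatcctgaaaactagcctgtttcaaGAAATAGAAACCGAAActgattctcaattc
Tgtp2 (chr11:49064248-49064307, minus strand): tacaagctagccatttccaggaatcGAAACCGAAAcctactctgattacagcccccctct
B2m (chr2:122147523-122147582, plus strand): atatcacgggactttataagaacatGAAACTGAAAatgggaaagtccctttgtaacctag
In Ifit1 the matches lie on the strand opposite to the gene, so they read as TTTC, any 2 bases and TTTC. A match is a description of letters and not a measured binding site.

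Of the smooth muscle genes, all those past the test were higher with I-CBP112. Of 16 tested members, 10 passed the test (62.5%) and 12 had a difference above 0, with a median of 0.47 and a range from -0.91 to 2.21. Their medians in the authors' deposited tables were -0.82 with DMSO and close to 0 with I-CBP112. These genes code for the contractile proteins of smooth muscle cells and myofibroblasts and are driven by serum response factor through a promoter element called the CArG box.

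In the thin filament, Tpm2 (chromosome 4, 43514711 to 43523765, minus strand), beta-tropomyosin, averaged 4089.6 normalised counts with DMSO, 17479 with I-CBP112 and 14955 with ethanol. The difference of 2.10 ± 0.12 (adjusted p = 3.31e-64), 4.27-fold, had the smallest p of all tested genes. Actg2 (chromosome 6, 83512905 to 83536265, minus strand), the gamma actin of smooth muscle, averaged 183, 842 and 899.9 in the same order (2.21 ± 0.20, adjusted p = 1.62e-24). DMSO was the low group in both genes. The alpha actin Acta2 averaged 68882, 91138 and 89625 (0.40 ± 0.12, adjusted p = 0.0161), a difference the larger error bound does not hold. The actin-binding proteins Tagln and Cnn1 averaged 8242 and 462 with DMSO against 19067 and 896 with I-CBP112 (1.21 ± 0.13 and 0.96 ± 0.17, adjusted p = 4.28e-18 and 2.11e-06).

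In the thick filament, Myl9, the regulatory myosin light chain of smooth muscle, averaged 11439 with DMSO, 30033 with I-CBP112 and 21927 with ethanol (1.39 ± 0.11, adjusted p = 1.06e-31). The heavy chain Myh11 averaged 7866, 17410.1 and 16719 (1.15 ± 0.18, adjusted p = 2.9e-08). The kinase of that light chain, Mylk, was not past the test (-0.04 ± 0.34, 95% interval -0.72 to 0.64), nor was smoothelin, Smtn (0.04 ± 0.19). With the larger error bound 7 of the 10 calls stood.

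A CArG box, named and not spelled out because it uses mixed letters, was found in 1.63% of all promoter windows, in 1.34% of those of tested genes and in 2 of 8 windows of smooth muscle genes past the test. Of the 10 smooth muscle genes past the test, 7 had a window. Over all genes past the test, the box was in 2.42% of windows of genes higher with I-CBP112 and 2.58% of those lower. It was also in 6 of 43 windows of tested cardiac sarcomere genes. The 2 smooth muscle windows are printed with the match in capitals, for Myl9 and for Cnn2, a calponin that differed by 0.57.
Myl9 (chr2:156775278-156775337, plus strand): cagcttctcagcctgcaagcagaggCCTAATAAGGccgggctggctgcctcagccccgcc
Cnn2 (chr10:79988519-79988578, plus strand): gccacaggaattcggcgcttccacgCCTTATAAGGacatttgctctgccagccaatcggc

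The reprogramming factors did not differ past the test. Gata4, a zinc finger factor, averaged 11801 normalised counts with DMSO, 10966 with I-CBP112 and 8699 with ethanol (-0.11 ± 0.12, 95% interval -0.33 to 0.12). Hand2, a basic helix-loop-helix factor, averaged 10972, 9825 and 7848 (-0.16 ± 0.12, interval -0.38 to 0.07). Mef2c, a MADS-box factor, averaged 24263, 20285 and 14319 (-0.26 ± 0.13, interval -0.52 to 0.00). Tbx5, a T-box factor, averaged 10146, 8940.2 and 7284 (-0.18 ± 0.35, interval -0.87 to 0.50). All 4 intervals lay within 2-fold. Reads of the viral copies and of the cells' own genes are not told apart in these totals.

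Other cardiac transcription factors had no member higher and 2 of 19 tested members lower (10.5%, against 2.66% of all tested genes), with a median of -0.25. Tbx20 (chromosome 9, 24718138 to 24774303, minus strand), a T-box factor of the developing heart, averaged 1874 with DMSO, 957 with I-CBP112 and 1444 with ethanol (-0.97 ± 0.16, adjusted p = 5.67e-07). Ethanol lay between the treatments. The second was Smyd1, given above.

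Sarcomere genes of the heart moved in both directions. Of 36 tested members, 6 were higher with I-CBP112 (16.7%, against 4.31% of all tested genes) and 8 lower (22.2%, against 2.66%). The median was -0.06. Against ethanol, the medians in the authors' deposited tables were 0.87 with DMSO and 0.95 with I-CBP112. Myl7 (chromosome 11, 5896637 to 5898782, minus strand), the atrial regulatory myosin light chain, averaged 58408 normalised counts with DMSO, 31778 with I-CBP112 and 13759 with ethanol (-0.88 ± 0.11, adjusted p = 3.43e-13). Tmod1, which caps the slow-growing end of the thin filament, averaged 4059, 2435 and 957 (-0.74 ± 0.15, adjusted p = 3.09e-05). Hspb7, a small heat shock protein of heart muscle, averaged 3012, 1615 and 1128 (-0.90 ± 0.14, adjusted p = 4.42e-08). Actn2, the alpha-actinin of the Z-disc, averaged 3776, 2414 and 532 (-0.65 ± 0.14, adjusted p = 0.000116), though the larger error bound ends that call. In these 4 genes both treatments stood above ethanol and DMSO was the higher one.

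Of the sarcomere genes higher with I-CBP112, Tnni1, the slow skeletal troponin I that embryonic heart also makes, averaged 1128 with DMSO, 2627 with I-CBP112 and 879 with ethanol (1.22 ± 0.18, adjusted p = 9.23e-10). Myoz2, a Z-disc protein that binds calcineurin, averaged 134, 419 and 132 (1.64 ± 0.29, adjusted p = 1.59e-06). Myom2, an M-band protein, averaged 4167, 7619 and 3428 (0.87 ± 0.12, adjusted p = 4.62e-10). In Tnni1, Myoz2 and Myom2 I-CBP112 was the highest of the 3 groups. The cardiac alpha actin Actc1 averaged 23660.4, 34952 and 13068 (0.56 ± 0.13, adjusted p = 0.000979). A pair of widely used markers had intervals that spanned 0: Myh6, the alpha myosin heavy chain, differed by -0.05 ± 0.16 (interval -0.37 to 0.27) and Tnnt2, cardiac troponin T, by 0.16 ± 0.12 (interval -0.08 to 0.39). Cardiac troponin I, Tnni3, differed by -0.36 ± 0.14 (adjusted p = 0.118). With the larger error bound 3 calls stood in each direction.

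**Figure D4:**
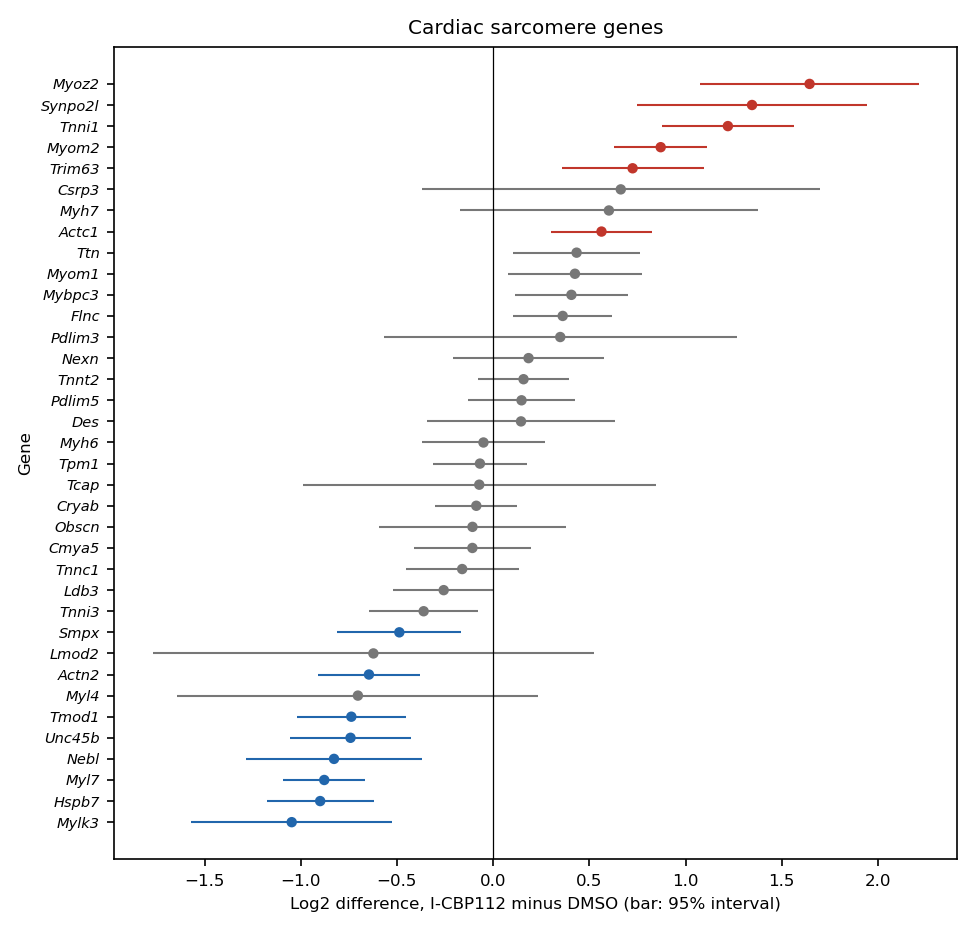
Log2 difference (I-CBP112 minus DMSO) of the 36 tested cardiac sarcomere genes; dots are differences and bars 95% intervals, red and blue for genes past the test and higher or lower with I-CBP112, grey for the rest. Red bars run from Actc1 to Myoz2 at the top, blue bars from Smpx down to Mylk3, and the intervals of Myh6 and Tnnt2 span 0.

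Genes of calcium handling and ion channels had 1 of 35 tested members higher (2.86%) and 2 lower (5.71%). Over all tested genes these shares were 4.31% and 2.66%, so the counts lie near them. Of the 35, 30 had intervals within 2-fold. Srl, sarcalumenin of the sarcoplasmic reticulum, averaged 10825 with DMSO, 8116 with I-CBP112 and 2879 with ethanol (-0.42 ± 0.13, adjusted p = 0.019). Hcn4, the pacemaker channel, averaged 5159, 3658 and 2449.7 (-0.50 ± 0.17, adjusted p = 0.0454), a call lost under both other scalings. Gja5, the connexin of atria and conduction fibres, averaged 27.9, 76.0 and 46.9 (1.44 ± 0.48, adjusted p = 0.0392). All 3 calls end with the larger error bound.

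Among natriuretic peptides and muscle stress genes the receptors moved apart. Npr1, the receptor with guanylate cyclase activity, averaged 112 with DMSO, 285 with I-CBP112 and 383 with ethanol (1.35 ± 0.25, adjusted p = 5.12e-06). Npr3, which clears the peptides, averaged 4932, 3328 and 3585 (-0.57 ± 0.14, adjusted p = 0.0016). Npr3 was not called with the larger error bound. The peptide Nppa, named after its values were seen, averaged 7255, 13308 and 819, but its difference of 0.88 ± 1.29 had an interval of -1.66 to 3.41 and was not resolved.

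Skeletal muscle genes had 2 of 11 tested members higher and 1 lower, the latter Myl1 above. Tnnt3, fast troponin T, averaged 28.4 with DMSO, 85.5 with I-CBP112 and 181 with ethanol (1.59 ± 0.46, adjusted p = 0.0137), and Myh2, a fast myosin heavy chain, averaged 42.1, 109 and 131 (1.37 ± 0.37, adjusted p = 0.00631). Neither call stood with the larger error bound. Of the 4 skeletal muscle markers, Myod1 was at 0 and Myog below 1 normalised count in both groups, while Acta1, the skeletal alpha actin, averaged 286 with DMSO, 170.4 with I-CBP112 and 87.0 with ethanol (-0.75 ± 0.32, adjusted p = 0.158). Myh3, the embryonic myosin heavy chain, averaged 7.71, 1.01 and 0.450 and was not tested. The 4 markers summed to 294 with DMSO and 172 with I-CBP112.

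Of the mitosis genes, all those past the test were lower with I-CBP112. Of 35 tested members, 8 passed the test downward (22.9%, against 2.66% of all tested genes) and none upward, and 2 had a difference above 0. The median of -0.70 was the lowest of all lists with 8 or more tested members, and the medians in the authors' deposited tables were 0.19 with DMSO and -0.46 with I-CBP112. Tpx2 (chromosome 2, 152847964 to 152895321, plus strand), which builds spindle microtubules, averaged 457 normalised counts with DMSO, 197 with I-CBP112 and 326 with ethanol (-1.21 ± 0.20, adjusted p = 1.35e-07). Cenpa, the histone variant of centromeres, averaged 1818, 1015 and 604 (-0.84 ± 0.15, adjusted p = 2.02e-06). Ethanol lay below both treatments for Cenpa and between them for Tpx2. Mki67, the antigen of cycling cells, averaged 779, 452 and 704 (-0.79 ± 0.18, adjusted p = 0.000566). Cenpf differed by -1.13 ± 0.34 (adjusted p = 0.0196), the checkpoint kinase Bub1 by -1.25 ± 0.40 (adjusted p = 0.0291) and the topoisomerase Top2a by -0.60 ± 0.19 (adjusted p = 0.0331). Under the larger error bound 2 calls stood, those of Tpx2 and Cenpa, and scaling to totals left 5. Only 9 of the 35 intervals lay within 2-fold.

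Many mitosis genes carry the element CHR, TTTGAA, through which the DREAM complex and B-Myb act. It was found on either strand in 24 of 31 windows of tested mitosis genes (77.4%), against 17.9% of all windows and 1599 of the 13324 windows of tested genes. Over all genes past the test, CHR was in 11.9% of windows of genes higher with I-CBP112 and 13.2% of those lower. The stretches of Mki67 and Top2a are given here with CHR matches in capitals.
Mki67 (chr7:135716443-135716502, minus strand): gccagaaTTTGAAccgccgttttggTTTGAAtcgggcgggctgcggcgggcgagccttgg
Top2a (chr11:99024190-99024249, minus strand): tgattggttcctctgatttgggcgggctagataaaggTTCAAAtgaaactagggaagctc

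Clustered histone genes, which are transcribed mainly in S phase, had 8 of 61 tested members lower (13.1%, against 2.66% of all tested genes) and none higher. Their median was -0.44. Hist1h4c averaged 2322 with DMSO, 1363 with I-CBP112 and 1261 with ethanol (-0.77 ± 0.18, adjusted p = 0.0012), and Hist1h3e averaged 1359.6, 803 and 752 (-0.76 ± 0.16, adjusted p = 0.000231). The linker histone Hist1h1e differed by -0.61 ± 0.17 (adjusted p = 0.0097). With I-CBP112 Hist1h1e averaged 3029, beside 4637 with DMSO and 3054 with ethanol, and in all 3 genes the I-CBP112 level lay nearer to ethanol than to DMSO. None of the 8 calls stood with the larger error bound, and near-identical histone genes share reads. DNA replication genes had 1 of 37 tested members higher and 1 lower (2.70% each, near the 4.31% and 2.66% of all tested genes). These were Rrm1 and Rrm2, the subunits of ribonucleotide reductase, which differed by 0.41 ± 0.14 and -0.62 ± 0.17 (adjusted p = 0.0438 and 0.00601), in opposite directions. Among 25 tested genes of p53 and growth arrest, Cdkn1a (chromosome 17, 29090976 to 29100727, plus strand), the CDK inhibitor p21, averaged 3354 with DMSO, 8141 with I-CBP112 and 7773 with ethanol (1.28 ± 0.16, adjusted p = 5.32e-13). Pmaip1, a BH3-only killer protein, differed by 0.65 ± 0.17 (adjusted p = 0.0033) and Sesn1, a sestrin, by -0.55 ± 0.12 (adjusted p = 0.000305), and the larger error bound ends both calls.

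Lysosome genes past the test were higher with I-CBP112 with 1 exception, each by less than 2-fold. Of 45 tested hydrolases and membrane proteins, 14 passed the test upward (31.1%, against 4.31% of all tested genes) and 1 downward (2.22%, against 2.66%). These genes had a median of 0.25 and differences from -0.37 to 0.66. Their summed level was 387573 normalised counts with DMSO, 465637 with I-CBP112 and 377713 with ethanol. Ctsd, the protease cathepsin D, averaged 53462, 77921 and 69742 (0.54 ± 0.13, adjusted p = 0.00129). Gaa, the acid glucosidase that breaks down glycogen, averaged 8084, 11809 and 8777 (0.55 ± 0.12, adjusted p = 0.000336). The sulfatase Arsa differed by 0.66 ± 0.17 (adjusted p = 0.00249), the tetraspanin Cd63 by 0.63 ± 0.15 (adjusted p = 0.00154) and the peptidase Tpp1 by 0.47 ± 0.11 (adjusted p = 0.00129). None of the 14 calls stood with the larger error bound. The 1 lower member was the acid lipase Lipa, named after its value was seen (-0.37 ± 0.12, adjusted p = 0.0315), whose call was lost under both other scalings.

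The vacuolar ATPase, the pump that acidifies lysosomes, had 3 of 19 tested subunits higher (15.8%), none lower and 18 above 0, with a median of 0.24, and all 19 intervals lay within 2-fold. Atp6v1e1 differed by 0.52 ± 0.13 (adjusted p = 0.00202), Atp6ap2 by 0.44 ± 0.12 (adjusted p = 0.00467) and Atp6v1a by 0.37 ± 0.12 (adjusted p = 0.0278), 0 of the 3 with the larger error bound and 5 subunits higher under both other scalings. Among genes known as targets of the MiT transcription factors, Gpnmb (chromosome 6, 49036546 to 49070929, plus strand), a glycoprotein of melanosomes and lysosomes, averaged 4576 with DMSO, 13129 with I-CBP112 and 9404 with ethanol (1.52 ± 0.12, adjusted p = 3.01e-34), 2.87-fold. Mlana, a melanosome protein, averaged 56.5, 229 and 125 (2.02 ± 0.30, adjusted p = 5.73e-09). In Gpnmb and Mlana DMSO was below ethanol and I-CBP112 above it. Fnip2 and Rragd, which couple lysosomes to mTORC1, differed by 1.14 ± 0.20 and 0.50 ± 0.13 (adjusted p = 1.1e-06 and 0.0031), and the larger error bound ends the call of Rragd. The MiT factors themselves, named after their values were seen, were not past the test: Mitf -0.36 ± 0.21, Tfeb -0.24 ± 0.19 and Tfe3 -0.19 ± 0.14.

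Matrix genes past the test lay in both directions. Collagens had 4 of 40 tested members higher (10%, against 4.31% of all tested genes) and 5 lower (12.5%, against 2.66%). Col1a2 (chromosome 6, 4504814 to 4541544, plus strand), a chain of type I collagen, averaged 123576 normalised counts with DMSO, 89199 with I-CBP112 and 170260.0 with ethanol (-0.47 ± 0.12, adjusted p = 0.00174), and the larger error bound ends the call. Both treatments were below ethanol. Its partner Col1a1 differed by -0.25 ± 0.39 and Col3a1 by -0.24 ± 0.12, neither past the test. Col8a2 averaged 3855, 1850.4 and 3743 (-1.06 ± 0.16, adjusted p = 3.27e-09), and Col27a1, a cartilage collagen, averaged 1847, 759 and 998 (-1.28 ± 0.21, adjusted p = 2.12e-07). Col28a1 moved the other way, with 216, 521 and 1845 (1.27 ± 0.16, adjusted p = 5.34e-12), still below ethanol in both treatments.

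Elastic fibre genes had 5 of 22 tested members higher (22.7%, against 4.31% of all tested genes) and 2 lower (9.09%, against 2.66%). Eln, elastin, averaged 4701 with DMSO, 7859 with I-CBP112 and 20482 with ethanol (0.74 ± 0.12, adjusted p = 1.33e-07). The microfibril proteins Mfap4 and Mfap5 differed by 0.65 ± 0.17 (adjusted p = 0.00401) and -1.05 ± 0.20 (adjusted p = 6.99e-06), in opposite directions, and Fbln5, which joins elastin to cells, by -0.55 ± 0.13 (adjusted p = 0.00071). For Eln, Mfap4 and Mfap5 both treatments were below ethanol. The small leucine-rich proteoglycans, which bind collagen fibrils, had 3 of 11 tested members lower (27.3%, against 2.66% of all tested genes) and none higher. Those lower were Prelp -0.65 ± 0.14 (adjusted p = 0.000172), Ogn -0.55 ± 0.16 (adjusted p = 0.0155) and Dcn -0.41 ± 0.12 (adjusted p = 0.0161). The larger error bound ends these 3 calls and those of Mfap4 and Fbln5.

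Metalloproteinases and their inhibitors had 4 of 36 tested members higher and 4 lower. Mmp2, a gelatinase, averaged 28507 with DMSO, 42561 with I-CBP112 and 46336 with ethanol (0.58 ± 0.11, adjusted p = 2.07e-05). Adam23 and Adamts17 differed by -0.87 ± 0.13 and -1.29 ± 0.26 (adjusted p = 9.5e-09 and 4.19e-05). Other fibroblast genes had 7 of 24 tested members higher (29.2%) and 1 lower. Fn1, fibronectin, averaged 39237, 70613 and 90954 (0.85 ± 0.17, adjusted p = 3.44e-05), and Vim, vimentin, averaged 92569, 128290.0 and 124509 (0.47 ± 0.12, adjusted p = 0.00163). Dpt, dermatopontin, differed by 0.90 ± 0.17 (adjusted p = 1.04e-05) and Cthrc1, a secreted collagen triple helix protein, by 0.90 ± 0.15 (adjusted p = 2.99e-07). Of the 7 higher, 4 stood with the larger error bound, and Vim did not. Cartilage, bone and tendon genes had 1 of 20 tested members higher, Spp1, osteopontin (1.30 ± 0.16, adjusted p = 3.52e-13), and 4 lower, such as Phex, an endopeptidase of bone (-1.42 ± 0.31, adjusted p = 0.000294), none of the latter with the larger error bound.

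Among Wnt pathway genes, 1 of 36 tested members was higher (2.78%, against 4.31% of all tested genes) and 6 were lower (16.7%, against 2.66%). The median of -0.03 is near 0 and changes sign with the scaling. The receptors Fzd1 (chromosome 5, 4753839 to 4758035, minus strand) and Fzd4 averaged 4592 and 6307 normalised counts with DMSO against 2560.0 and 3707 with I-CBP112 (-0.84 ± 0.12 and -0.77 ± 0.12, adjusted p = 1.23e-09 and 6.26e-08). With ethanol these levels were 4889.8 and 6393, close to DMSO. The R-spondins Rspo1 and Rspo3, which strengthen Wnt signals, differed by -1.18 ± 0.29 and -0.80 ± 0.15 (adjusted p = 0.00171 and 1.63e-05). The secreted antagonist Dkk2 was lower (-0.98 ± 0.15, adjusted p = 1.95e-08), whereas its family member Dkk3 averaged 5394 with DMSO, 14611 with I-CBP112 and 7752 with ethanol (1.44 ± 0.17, adjusted p = 2.96e-15). The larger error bound left 4 of the lower calls and that of Dkk3, and ended that of Rspo1.

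Of 40 tested genes of the TGF-beta, BMP and activin pathways, 3 were higher and 3 lower (7.5% each, against 4.31% and 2.66% of all tested genes). The higher ones were an activin subunit, Inhba (0.61 ± 0.19, adjusted p = 0.0313), and the antagonists Fstl3 (1.10 ± 0.18, adjusted p = 1.58e-07) and Grem1 (0.71 ± 0.16, adjusted p = 0.000599). The lower ones were the ligand Gdf10 (-0.91 ± 0.23, adjusted p = 0.00334) and the BMP targets Id2 (-0.67 ± 0.16, adjusted p = 0.00125) and Id3 (-0.51 ± 0.16, adjusted p = 0.0206). Of these only Fstl3 stood with the larger error bound. In the FGF, PDGF and VEGF pathways 4 of 33 tested members were higher and 4 lower. The ligands Fgf2 and Fgf7 averaged 3105 and 364 with DMSO and 1914 and 178 with I-CBP112 (-0.70 ± 0.13 and -1.03 ± 0.22, adjusted p = 1.81e-05 and 0.000145), and Vegfb differed by 0.85 ± 0.21 (adjusted p = 0.00141), the last not with the larger error bound.

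The IGF axis and imprinted genes had 4 of 26 tested members lower and none higher, or 2 higher under both other scalings. The growth factor Igf1 differed by -0.64 ± 0.15 (adjusted p = 0.000586). Among its binding proteins, Igfbp4 averaged 6893 with DMSO, 4249 with I-CBP112 and 13483 with ethanol (-0.70 ± 0.13, adjusted p = 1.79e-05), and Igfbp6 averaged 24535, 11375 and 11599 (-1.11 ± 0.35, adjusted p = 0.0287). Only Igfbp4 stood with the larger error bound. Notch genes had Notch1 higher (0.86 ± 0.26, adjusted p = 0.0179) of 13 tested, lost with that bound, while the ligand Jag1 and the receptor Notch2 gave 0.05 ± 0.12 and -0.04 ± 0.17, with intervals of -0.19 to 0.29 and -0.37 to 0.29. Of 55 tested guidance genes, 1 was higher (1.82%, against 4.31% of all tested genes) and 4 were lower (7.27%, against 2.66%). The higher one was the semaphorin Sema3b (1.64 ± 0.18, adjusted p = 1.08e-17). Sema3a was among the lower ones (-0.56 ± 0.13, adjusted p = 0.000686), of which none stood with that bound. The Hox clusters had Hoxa10 lower (-0.48 ± 0.14, adjusted p = 0.0125) of 32 tested, also lost with that bound. Of 27 tested immediate early genes, 3 were higher, such as Nr4a2 (1.00 ± 0.31, adjusted p = 0.0251), and 2 lower, Klf2 (-1.10 ± 0.24, adjusted p = 0.000194) and Dusp6 (-0.68 ± 0.18, adjusted p = 0.00335), none with that bound.

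Cytokines and chemokines had 3 of 27 tested members higher and 4 lower. Cxcl14, a chemokine, averaged 848 with DMSO, 335 with I-CBP112 and 733 with ethanol (-1.34 ± 0.20, adjusted p = 1.93e-09). Tnfrsf11b, the decoy receptor osteoprotegerin, averaged 36.8, 105 and 297 (1.51 ± 0.36, adjusted p = 0.000994), a call the larger error bound ends. The pentraxin Ptx3 differed by -0.90 ± 0.19 (adjusted p = 9.82e-05). Complement genes had 5 of 18 tested members higher (27.8%, against 4.31% of all tested genes) and 2 lower (11.1%, against 2.66%). C2, a serine protease of the classical pathway, averaged 1029.7, 1855 and 2583 (0.85 ± 0.14, adjusted p = 2.59e-07). Under the larger error bound 2 of the higher calls stood, C2 and C1s1, and 1 of the lower ones.

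Cholesterol synthesis genes had 6 of 26 tested members lower (23.1%, against 2.66% of all tested genes) and 1 higher (3.85%, against 4.31%). The median was -0.17, and no call stood with the larger error bound. Msmo1, a methylsterol oxidase, averaged 7718 with DMSO, 5341 with I-CBP112 and 3690.1 with ethanol (-0.53 ± 0.13, adjusted p = 0.00244). Hmgcs1, which makes HMG-CoA, averaged 7338, 5553 and 5066 (-0.40 ± 0.11, adjusted p = 0.00826), and Sqle, squalene epoxidase, averaged 3863, 2887 and 2567 (-0.42 ± 0.13, adjusted p = 0.0167). In these 3 genes I-CBP112 lay between ethanol and DMSO. The higher member was Lpin1, a phosphatidate phosphatase (0.53 ± 0.12, adjusted p = 0.00084). Of 16 tested fatty acid synthesis genes 2 were lower, Gpam (-0.58 ± 0.13, adjusted p = 0.000631) and Fads2 (-0.62 ± 0.14, adjusted p = 0.000592), both lost with that bound.

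Mitochondrial genes were held close. Of 81 tested genes of oxidative phosphorylation, 79 had an interval within 2-fold, and only Cox6b2, a testis-type subunit of cytochrome oxidase, passed the test, with 79.4 normalised counts with DMSO, 328 with I-CBP112 and 193 with ethanol (2.05 ± 0.30, adjusted p = 1.9e-09). The ATP synthase subunits Atp5b and Atp5a1 gave -0.03 ± 0.13 and -0.13 ± 0.12. None of the 13 tested mitochondrially encoded genes passed, and 12 were bounded within 2-fold. Fatty acid oxidation had 2 of 33 tested genes higher (6.06%) and 1 lower (3.03%), near the 4.31% and 2.66% of all tested genes. The higher ones were the mitochondrial carrier Ucp2 (1.47 ± 0.17, adjusted p = 2.37e-14) and the muscle carnitine transferase Cpt1b (1.28 ± 0.28, adjusted p = 0.000307). The lipase Lpl was lower (-0.65 ± 0.15, adjusted p = 0.000879). Of these, Ucp2 alone stood with the larger error bound. Glycolysis and hypoxia genes had 5 of 35 higher, such as the hexokinase Hk2 (0.87 ± 0.25, adjusted p = 0.00988), and Pfkfb3 lower (-0.75 ± 0.22, adjusted p = 0.017), and no call stood with that bound.

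Cytosolic ribosomal protein genes had 78 of 81 tested members above 0 with a median of 0.17, yet only 2 passed the test, among them Rps28 (0.48 ± 0.11, adjusted p = 0.000868), and neither with the larger error bound. All 81 intervals lay within 2-fold. The integrated stress response list had Phgdh, which starts serine synthesis, higher (0.61 ± 0.16, adjusted p = 0.00631) of 39 tested, and the heat shock list the mitochondrial chaperone Hspa9 higher (0.40 ± 0.11, adjusted p = 0.00532) and the inducible Hspa1b lower (-0.49 ± 0.14, adjusted p = 0.0141) of 29, all 3 lost with that bound. Of 42 tested NRF2 and glutathione genes 4 were higher (9.52%, against 4.31% of all tested genes) and 2 lower (4.76%, against 2.66%). The secreted peroxidase Gpx3 averaged 19230.2 with DMSO, 31592 with I-CBP112 and 15727 with ethanol (0.72 ± 0.11, adjusted p = 1.58e-08), while the glutathione transferases Gsta4 and Gsta3 differed by 1.06 ± 0.19 and -1.19 ± 0.24 (adjusted p = 2.02e-06 and 6.14e-05), in opposite directions. Metallothioneins Mt1 and Mt2 were higher (0.72 ± 0.20 and 0.59 ± 0.20, adjusted p = 0.00932 and 0.0435) and the zinc exporter Slc30a1 lower (-0.60 ± 0.19, adjusted p = 0.0239), all 3 lost with that bound.

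The targets of I-CBP112 themselves did not differ past the test in RNA. Crebbp, which codes for CBP, averaged 1934 with DMSO, 1994 with I-CBP112 and 1918 with ethanol (0.04 ± 0.21, interval -0.37 to 0.46). Ep300, which codes for p300, averaged 1761, 1602 and 1720.0 (-0.14 ± 0.15, interval -0.43 to 0.16). Of 43 tested acetyltransferases, bromodomain proteins and CITED partners, 1 was higher (2.33%) and 2 were lower (4.65%). Over all tested genes these shares were 4.31% and 2.66%, so the counts lie near them. Cited1 (chromosome X, 102247381 to 102252181, minus strand), which binds CBP and p300, averaged 1150.1, 549.5 and 185 (-1.07 ± 0.21, adjusted p = 5.2e-05), above ethanol in both treatments and higher with DMSO. The nuclear receptor coactivator Ncoa2 differed by -0.48 ± 0.14 (adjusted p = 0.0114) and the bromodomain reader Zmynd8 by 0.69 ± 0.15 (adjusted p = 0.000387). Of 18 tested histone deacetylases, Hdac9, which represses Mef2 factors, averaged 1139, 642 and 338 (-0.83 ± 0.20, adjusted p = 0.00159) and Hdac11 averaged 428, 749 and 399 (0.81 ± 0.20, adjusted p = 0.00146). The call of Cited1 stood with the larger error bound, unlike those of Ncoa2, Zmynd8, Hdac9 and Hdac11.

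Markers of other cell types moved with some of these groups, and their part in the results was not tested. The smooth muscle markers Acta2, Myh11, Cnn1 and Tagln, all 4 past the test, summed to 85452 normalised counts with DMSO and 128511 with I-CBP112, beside 124867 with ethanol. The 6 macrophage and leukocyte markers summed to 3294 and 2587, with 1 past the test and lower, Lyz2 (-0.42 ± 0.14, adjusted p = 0.0474, lost under both other scalings), while Ptprc gave 0.00 ± 0.37. Of 17 tested genes of that list the perforin-like Mpeg1 was higher (1.13 ± 0.23, adjusted p = 7.33e-05). Endothelial markers summed to 578 and 660, with Pecam1 at 16.3 and 13.7 and Cdh5 at 1.47 and 3.04, and Kdr gave 0.10 ± 0.21. Neuron and glia markers summed to 4158 and 6771, with Map2 (0.71 ± 0.15, adjusted p = 0.0001) and Tubb3 (0.70 ± 0.22, adjusted p = 0.0278, not with the larger error bound) higher and the neuronal marker Rbfox3 below 1 normalised count in both groups. The 4 adipocyte markers summed to 443 and 408 and none of them passed the test, while of 12 tested genes of the adipocyte and lipid droplet list Plin4 alone did. Epithelial markers summed to 34.4 and 33.8 and none was tested, while of 10 tested genes of the epithelial and epicardial list Upk1b and Krt7 were lower (-0.67 ± 0.14 and -0.95 ± 0.24, adjusted p = 0.000128 and 0.00334, the latter not with the larger error bound).

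**Figure D5:**
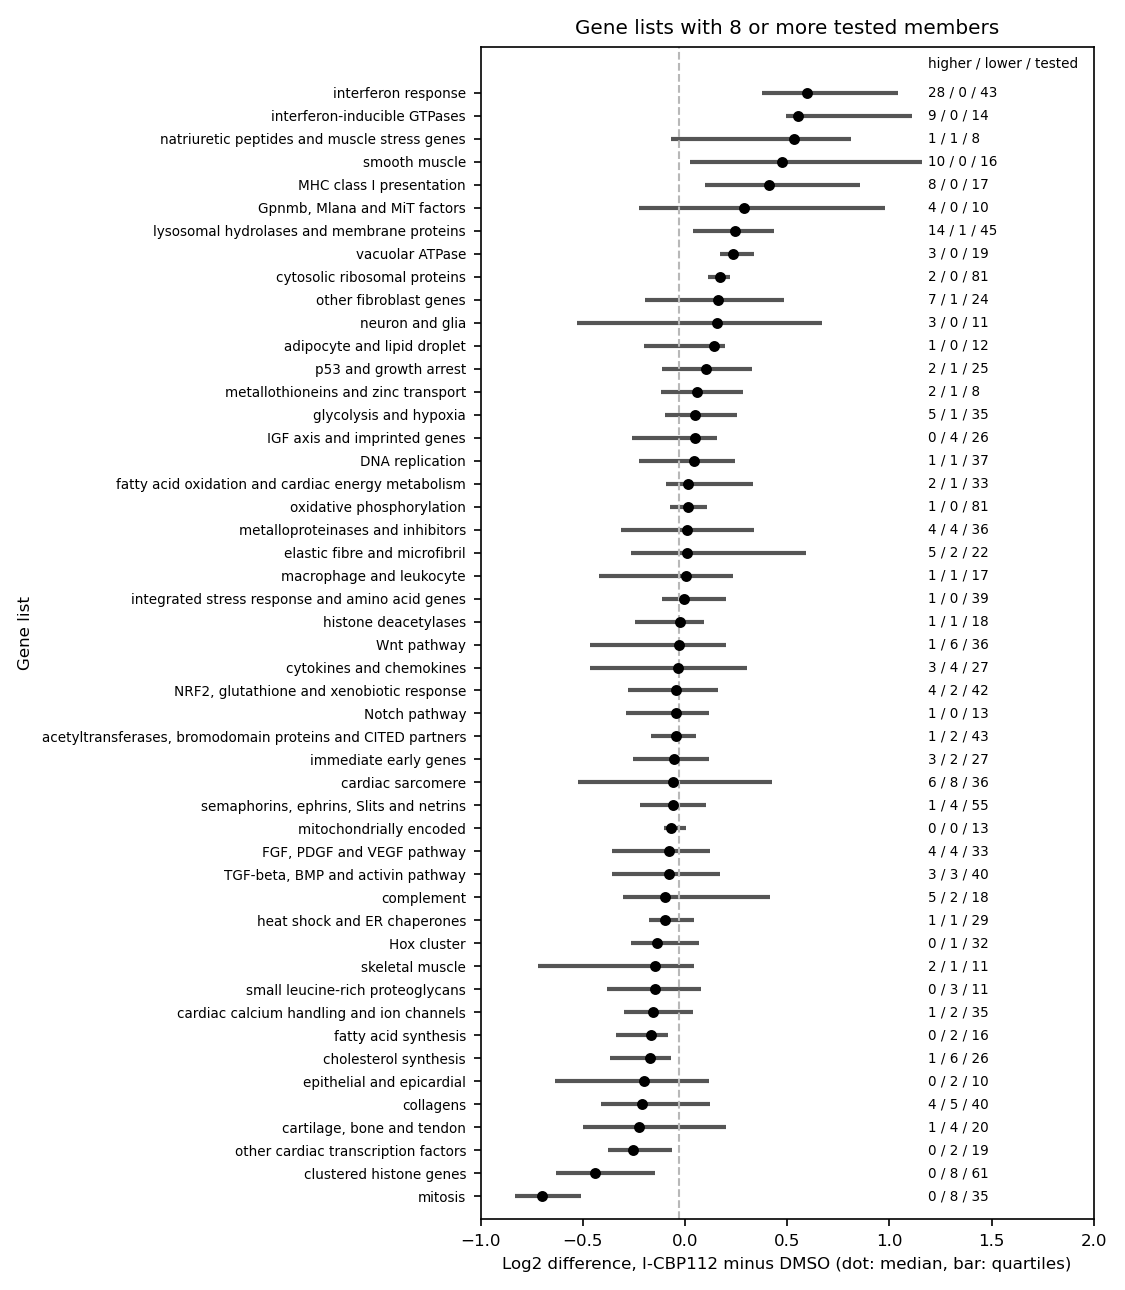
Median log2 difference (I-CBP112 minus DMSO, dots) and quartiles (bars) of the tested members of each gene list with 8 or more of them, sorted by median, with the numbers higher, lower and tested at the right; the dashed line is the median of all tested genes, -0.03. The interferon response list is at the top with a median of 0.60 and the mitosis list at the bottom with -0.70.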

How the data were processed

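RNA was sequenced from 8 libraries, 2 in each of 4 groups, and genes were quantified with kallisto 0.43.1 on GRCm38.p5 and compared with DESeq2 (version not given in the sources used here), per the submitters' processing notes. The authors' 3 tables, per the file headers, hold mean normalised counts (a signal averaged over all libraries of their fit), log2 fold changes with standard errors, Wald scores and p-values. The library sizes and single counts are not in the tables, so the depth per library is unknown here, and the precision is that of the authors' deposited standard errors (log2).

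The standard error of the difference was rebuilt from the 3 deposited errors with 1 dispersion per gene, a solution that gave back 98.9% to 99.1% of them within 1%. Group means were rebuilt from the mean count and the fold changes. The test is a two-sided Wald test with Benjamini-Hochberg adjustment over the 14830 genes that have an adjusted p in the DMSO table. It was also run on simulated counts drawn with 1 known dispersion per gene. Such a run cannot check how well a dispersion is estimated from 2 libraries per group. Alternatives were a larger error bound, a dispersion from 2 tables, a t distribution with 4 degrees of freedom, scalings by the median gene and by group totals, no filter or a minimum mean of 100, and a threshold of 0.01.

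Members and the 51 gene lists were chosen with earlier results of these data known. Genes are named by rule. It takes the GHMT factors, Crebbp and Ep300. It also takes the 12 highest and 12 lowest differences past the test at a mean of 50 or more with an informative symbol. From each list it takes up to 6 members past the test by p, or the 2 highest in level for lists with fewer than 2. Cell type markers were listed separately. The counts include a few genes past the test that are not reported here by name. Of genes outside the rule that are no markers, Cnn2, Ifit1, Ifit3b, Isg15, Mylk, Mylk3, Smpx, Smtn and Tap1 were picked after their values were seen, and the others are marked where named. Positions are GENCODE M21 on GRCm38. Promoter windows are RefSeq GRCm38.p6, 13324 of them for tested genes. Python 3.11.15, numpy 2.4.6, pandas 2.3.3, scipy 1.17.1 and matplotlib 3.10.9 were used.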

Additional observations from a re-analysis of the deposited data

How the results depend on the processing

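The counts depended most on the error model. The main count of 1034 genes (639 higher, 395 lower) became 237 with the larger error bound (168 higher, 69 lower), all of them among the 1034, and 596 at a threshold of 0.01 (396 higher, 200 lower). When p came from a t distribution (4 degrees of freedom) it was 0 (0 higher, 0 lower), with 1194 genes at an unadjusted p below 0.05. The 277 genes at least 2-fold apart became 128 with the larger bound and 0 with the t distribution, and the 259 calls inside the gene lists became 84 and 0. Scaling by the median gene gave 717 higher and 323 lower and scaling to group totals 742 and 308, which moved the share of higher calls from 61.8% to 68.9% and 70.7%. Without a filter 501 were higher and 279 lower. No result changed direction past the test under any of these 8 alternatives, but they could hardly have changed it. Those that alter only the error, filter or threshold leave the sign of a difference as it is. The scalings shift every difference by the same small amount. Of 226 named genes, 124 of the calls were lost with the larger bound, 208 with the t distribution, 42 at 0.01, 20 without a filter, 5 with totals and 4 with the median gene. No paired analysis was possible because the tables hold no values of single libraries, and for the same reason no library could be left out in turn. Precision is limited by 2 libraries per group: the median standard error was 0.185, and 3048 genes not past the test had intervals that reach past 2-fold.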

Other observations

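The 1034 genes past the test fell into the gene lists for 259 of them and outside all lists for 775. The genes in this paragraph belong to no list and were chosen after their values were seen, from the 16 such genes of smallest p that the text had not yet named and that have an informative symbol. Serpina3n, a secreted inhibitor of serine proteases, averaged 5974 normalised counts with DMSO, 18835 with I-CBP112 and 39868 with ethanol (1.66 ± 0.11, adjusted p = 7.92e-49). Both treatments were below ethanol, DMSO the further. Clu, the secreted chaperone clusterin, averaged 3832, 13463 and 4759 in the same order (1.81 ± 0.18, adjusted p = 7.24e-22), and Renbp, a renin-binding epimerase, averaged 526, 1765 and 697 (1.75 ± 0.16, adjusted p = 1.09e-24). Kif1a, a kinesin of axonal transport, averaged 1696, 4477 and 1383 (1.40 ± 0.14, adjusted p = 1.97e-19). In Clu, Renbp and Kif1a I-CBP112 was the highest of the 3 groups. Ptprz1, a receptor phosphatase of neural cells, averaged 199, 772 and 875 (1.95 ± 0.19, adjusted p = 7.1e-22), with DMSO the low group. Fuca2, a fucosidase, and Smarca1, a chromatin remodeller of the ISWI family, differed by 1.17 ± 0.13 (adjusted p = 2.96e-15) and 1.30 ± 0.15 (adjusted p = 7.99e-15). Of the 16, 2 were lower with I-CBP112. Hbegf, a ligand of the EGF receptor, averaged 2492, 1099.8 and 773 (-1.18 ± 0.14, adjusted p = 2.47e-15), so DMSO was the high group. Pi15, a secreted protease inhibitor, averaged 2759.8, 1084 and 2841 (-1.35 ± 0.14, adjusted p = 2.33e-18), and here I-CBP112 was the low group.

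Protein-coding genes made up 87.6% of the tested genes, 96.6% of those higher with I-CBP112 and 97.5% of those lower. Of 319 tested lincRNA genes, 12 were higher and 1 lower. Over all tested genes 4.31% were higher and 2.66% lower, so the number of lincRNA genes higher lies near the share of all genes. Zfas1, a host of small nucleolar RNAs, differed by 0.78 ± 0.20 (adjusted p = 0.00434) and Hoxa11os, antisense to Hoxa11, by -0.57 ± 0.19 (adjusted p = 0.039). Both were chosen after their values were seen, and reads of an antisense gene and its partner cannot be told apart where counting does not use strand. The small RNA 7SL took 7.17% of normalised counts with DMSO and 5.72% with I-CBP112, and Rn7sk took 1.17% and 0.787%.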
